A study of Mus musculus with 8 samples.

Results

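The carboxylesterases are serine hydrolases that cut the ester bonds of drugs, pesticides and lipids, and mouse liver makes many of them at once. Described here are 10 members, Ces1c, Ces1d, Ces1e, Ces1f, Ces1g, Ces2a, Ces2c, Ces2e, Ces3a and Ces3b, taken by name from a table of 55487 genes. The table holds 20 carboxylesterase genes in all, and the 10 others are given by their values further on. RNA was sequenced from the liver of wild-type male C57BL/6N mice, an inbred strain, in 8 libraries. WD+CCl4, with 1 library, combined a western diet with injections of carbon tetrachloride, a solvent that hepatocytes turn into a damaging radical. WD+oil, with 2 libraries, received the western diet and corn oil, and ND+CCl4, with 2 libraries, received normal chow and carbon tetrachloride. ND+oil, with 3 libraries, received normal chow and corn oil and is the control. The western diet joined a high-fat feed to drinking water with 23.1 g/L fructose and 18.9 g/L glucose, while chow came with tap water. Injections were weekly and into the peritoneum. The dose of carbon tetrachloride, the length of treatment and the age of the mice are not given in the sources used here. The labels leave unsaid whether each library is a different animal, and the p-values below therefore weigh differences only against the spread of these 8 libraries, part or all of which may be technical.

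Most carboxylesterases sit in the lumen of the endoplasmic reticulum, held there by a short signal at the end of the protein, and use a catalytic triad of serine, glutamate and histidine. In hepatocytes they act on foreign esters, and several of them also break down triglyceride or diglyceride, which frees fatty acids for very-low-density lipoprotein (VLDL) assembly or oxidation. Nuclear receptors that sense drugs, bile acids and fatty acids are known to control several of their genes.

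All values are FPKM, fragments per length of transcript and per depth of library, so levels of different genes can be compared per length. Sequencing depth is unknown, since no counts were analysed here. The FPKM of a library summed to between 514832 and 612747, and the 10 members made up between 0.303% and 0.554% of that sum. The 8 libraries held between 12531 and 14843 genes above 0. The Mup genes, which encode the major urinary proteins of male liver, took 7.06% of the sum in WD+CCl4, 8.16% and 8.61% in WD+oil, 2.33% and 3.98% in ND+CCl4, and 15.6%, 20.6% and 30.6% in ND+oil. FPKM is a share of the library, and against ND+oil the 11514 tested genes had a median log2 fold change of 0.19 in WD+CCl4, 0.22 in WD+oil and 0.26 in ND+CCl4. Scaling by the median of ratios between libraries brings these medians to 0.00775, 0.00272 and 0.00255. The 9 measured hepatocyte markers, such as albumin (Alb) and transthyretin (Ttr), summed to between 38647 and 65495 FPKM in every library, and none of them passed the test against ND+oil. In bulk tissue, fewer cells of a type and less RNA per cell cannot be told apart.

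The 20 genes lie in 2 clusters on chromosome 8 (GRCm38, GENCODE M21). The first, from 93020214 to 93535830 on the minus strand, spans 515.6 kb and holds the Ces1 genes and Ces5a. The other, from 104734003 to 105150109 on the plus strand, spans 416.1 kb and holds the Ces2 genes, the Ces3 genes and Ces4a. No other protein-coding gene lies inside either cluster, and 11.2 Mb separate them. Among members, the transcripts of the 5 Ces1 genes were between 74.5% and 79.1% identical, those of the 3 Ces2 genes between 81.4% and 81.9%, and those of Ces3a and Ces3b 95.4%. Near-identical copies can trade reads, and the sources used here do not give how such reads were counted. Of all 50-base stretches of its transcript, Ces2c shared 40.2% with another carboxylesterase, mostly the pseudogene Ces2d-ps, Ces3a shared 30.9% and Ces3b 26.1%, with each other, and Ces1c shared 13.4%, mostly with Ces1b. Values of these genes are therefore uncertain, by an amount that these shares do not give. The 6 other members shared at most 3.36%.

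The stretches before the transcription start of the 3 measured Ces2 members are shown because the log2 fold changes of these 3 genes of 1 cluster under the western diet, given below, ranged from -1.92 to 0.14. Each is the 120 bases up to the start, from the RefSeq promoter windows (GRCm38.p6, plus strand), at chr8:104733883-104734002 for Ces2a, chr8:104846948-104847067 for Ces2c and chr8:104926140-104926259 for Ces2e. Capitals mark GAACTTT and TTCCTGC, the 2 longest runs of letters found in all 3, each of 7 bases.
Ces2a: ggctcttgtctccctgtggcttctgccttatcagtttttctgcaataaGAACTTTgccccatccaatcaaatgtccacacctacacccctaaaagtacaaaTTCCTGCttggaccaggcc
Ces2c: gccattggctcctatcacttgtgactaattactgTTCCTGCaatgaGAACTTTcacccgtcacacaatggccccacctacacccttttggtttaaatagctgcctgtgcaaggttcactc
Ces2e: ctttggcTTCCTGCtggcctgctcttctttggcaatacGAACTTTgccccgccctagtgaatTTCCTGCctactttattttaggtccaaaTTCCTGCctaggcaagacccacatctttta
GAACTTT begins 72 bases before the start in Ces2a, 74 in Ces2c and 82 in Ces2e, and on either strand it occurs in 3.28% of the 32851 RefSeq windows, each of the 250 bases before a start. TTCCTGC begins 19 bases before the start in Ces2a, 86 in Ces2c, and 113, 58 and 30 in Ces2e, and occurs in 7.28% of the windows. Over the bases of these windows that align, the 3 promoters were between 67.3% and 69.9% identical in pairs. By the same measure, pairs of carboxylesterase promoters from different clusters lay between 54.4% (Ces1b and Ces3b) and 69.8% (Ces1h and Ces4a).

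A window was found for 7 of the 10 members and none for Ces1d, Ces1f or Ces3a. The 5 short motifs below were searched on both strands. The nuclear receptor type motif AGGTCA was in 1 of the 7, Ces2a, at 226 bases before the start, and in 14.0% of all windows. The C/EBP type motif TTGCNNAA was in 3, Ces1c, Ces2a and Ces2e, and in 9.6% of all windows. The antioxidant response type motif TGANNNNGC was in 2, Ces1g and Ces2a, and in 35.2% of all windows. The TATA box TATAAA was in Ces1g and Ces3b, and in 12.4% of all windows, and the HNF4 type motif CAAAGTC was in none of the 7 and in 3.8% of all windows. These are matches of letters and say nothing of which factor binds.

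By level, 2 genes led the family in every library. They were Ces1c, which encodes the esterase that mouse liver secretes into plasma, and Ces3a, of the Ces3 pair. Ces1c averaged 861 ± 113 FPKM and Ces3a 756 ± 39.0 FPKM in ND+oil (SD, n = 3), and their libraries overlapped. Next in ND+oil came Ces1f at 182 ± 21.7 FPKM, Ces1d at 174 ± 34.8, Ces3b at 149 ± 39.7 and Ces2a at 135 ± 28.7, of which each overlapped its neighbour in the order. Ces1e at 71.5 ± 22.3 FPKM and Ces2e at 71.3 ± 22.6 overlapped each other. Ces1g at 36.8 ± 3.57 FPKM and Ces2c at 14.3 ± 2.13 FPKM stood last and overlapped no neighbour. The order was not the same in the treated groups. In the WD+CCl4 library Ces3a stood above Ces1c, and Ces2a was ninth of the 10 at 16.3 FPKM, while in ND+CCl4 Ces1c averaged 987 ± 385 FPKM and Ces2e, at 130.3 ± 43.4 FPKM (SD, n = 2 each), overlapped Ces3b, its neighbour in the order.

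Together, Ces1c and Ces3a held 76.0% of the summed FPKM of the 10 members in WD+CCl4. They held 68.3% and 67.8% in WD+oil, 59.8% and 68.3% in ND+CCl4, and 65.5%, 66.5% and 65.9% in ND+oil. The sum itself was 1675 FPKM in WD+CCl4, 1666 and 1882 FPKM in WD+oil, 2059 and 2959 FPKM in ND+CCl4, and 2690, 2313 and 2349 FPKM in ND+oil. All 3 western diet libraries lay below all 5 normal diet libraries. The share of the library split the diets in the same way, although the order within each diet differed. It was 0.303% in WD+CCl4 and 0.307% and 0.328% in WD+oil, against 0.400% and 0.554% in ND+CCl4 and 0.448%, 0.394% and 0.383% in ND+oil. With the Mup genes taken out of the sum, the shares were 0.326% in WD+CCl4, 0.335% and 0.358% in WD+oil, 0.410% and 0.577% in ND+CCl4, and 0.531%, 0.495% and 0.552% in ND+oil, which left the western diet libraries lowest.

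**Figure D1:**
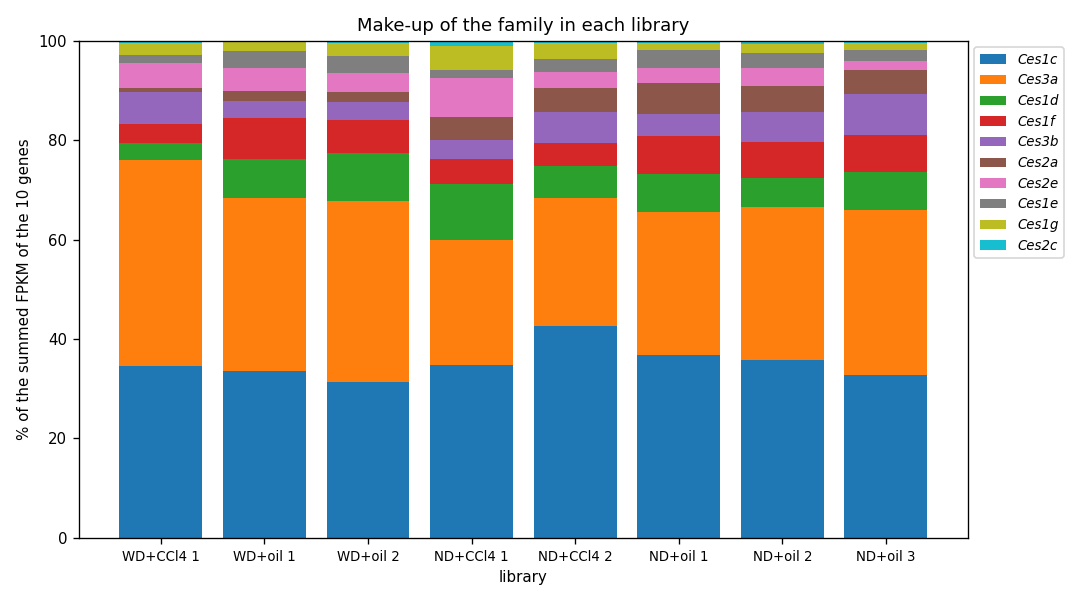
Share of each of the 10 carboxylesterase genes in their summed FPKM (%), 1 bar for each library, with WD+CCl4 at the left and ND+oil at the right. Ces1c and Ces3a fill between 59.8% and 76.0% of every bar, and the Ces2a band is narrowest in the 3 western diet libraries, at 0.971%, 1.86% and 2.01%.

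The western diet alone was tested by setting WD+oil against ND+oil. Of the 10 members 1 fell, Ces2a, 0 rose and 9 did not pass (limma on log2(FPKM + 1), Benjamini-Hochberg adjusted p below 0.05 over 11514 genes). Of all tested genes 4.41% passed, and 0.599% fell and 3.81% rose, or 69 and 439 genes, against 72 and 217 under median-of-ratios scaling. The members' median log2 fold change was -0.37, against 0.22 for all tested genes, and 9 of 10 were below 0, against 23.2% of all tested genes. In 6 members both WD+oil libraries lay below all ND+oil libraries, and in 0 both lay above them. Over all tested genes these shares were 5.18% and 40.7%. The 6 were Ces1c, Ces1f, Ces2a, Ces2c, Ces3a and Ces3b.

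Ces2a encodes a diglyceride hydrolase of mouse liver (ENSMUSG00000055730, chromosome 8, 104734003 to 104741634, plus strand, 12 exons). It had 31.0 and 37.7 FPKM in WD+oil, against 167, 123 and 113 FPKM in ND+oil. The groups lay far apart, and the WD+oil mean was 25.6% of the ND+oil mean. The log2 fold change on the log2(FPKM + 1) scale was -1.92 ± 0.25 (SE; limma adjusted p = 0.0152), or -2.14 relative to the median of all genes. The call ended without WD+oil library 1 (limma adjusted p = 0.107), WD+oil library 2 (0.161) or ND+oil library 2 (0.0521), where the change was -1.79, -2.06 and -1.98.

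The other Ces2 members, whose promoters are shown above, did not pass. Ces2c, a glyceride hydrolase of mouse liver and intestine, had 6.32 and 10.9 FPKM in WD+oil, against 15.1, 15.9 and 11.9 FPKM in ND+oil. Its WD+oil libraries were the lower ones without overlap, at -0.70 ± 0.27 (limma adjusted p = 0.169). Ces2e, known for hydrolysis of pyrethroid insecticides, had 77.3 and 74.1 FPKM in WD+oil, against 83.5, 85.2 and 45.3 FPKM in ND+oil. These groups overlapped, with a change of 0.14 and a 95% interval from -0.61 to 0.89, and the sign turned under median-of-ratios scaling, to -0.13. Whether Ces2a differed from Ces2e in its change was not tested.

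Among the Ces3 pair, Ces3b had 58.7 and 66.9 FPKM in WD+oil, against 118, 136 and 194 FPKM in ND+oil. It was the member with the next largest difference, at -1.21 ± 0.38, and did not pass (limma adjusted p = 0.109). It passed when either ND+CCl4 library was left out of the fit (limma adjusted p = 0.0316 without library 1 and 0.0313 without library 2). Its near copy Ces3a had 578 and 684 FPKM in WD+oil, against 777, 711 and 779.8 FPKM in ND+oil, a change of -0.26 with a 95% interval from -0.78 to 0.26. The sum of the pair is less exposed to reads traded between them, but was not tested.

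Of the Ces1 members none passed. Ces1c had 561 and 592 FPKM in WD+oil, against 987, 828 and 768 FPKM in ND+oil, at -0.57 ± 0.27 (limma adjusted p = 0.254). Ces1f, a triglyceride hydrolase of mouse hepatocytes, had 138 and 123 FPKM in WD+oil, against 207, 168 and 171 FPKM in ND+oil, at -0.47 ± 0.20 (limma adjusted p = 0.213). Both were lower in WD+oil without overlap. Ces1d, the triglyceride hydrolase that in mouse liver mobilises stored fat for VLDL, had 129.6 and 182 FPKM in WD+oil, against 205, 136 and 182 FPKM in ND+oil, and its interval ran from -0.74 to 0.42. Ces1e, or egasyn, which holds beta-glucuronidase in the endoplasmic reticulum, and Ces1g, whose loss in mice leads to fatty liver, also overlapped. Their changes were -0.18 (95% interval from -1.07 to 0.71) and -0.01 (-0.56 to 0.54).

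**Figure D2:**
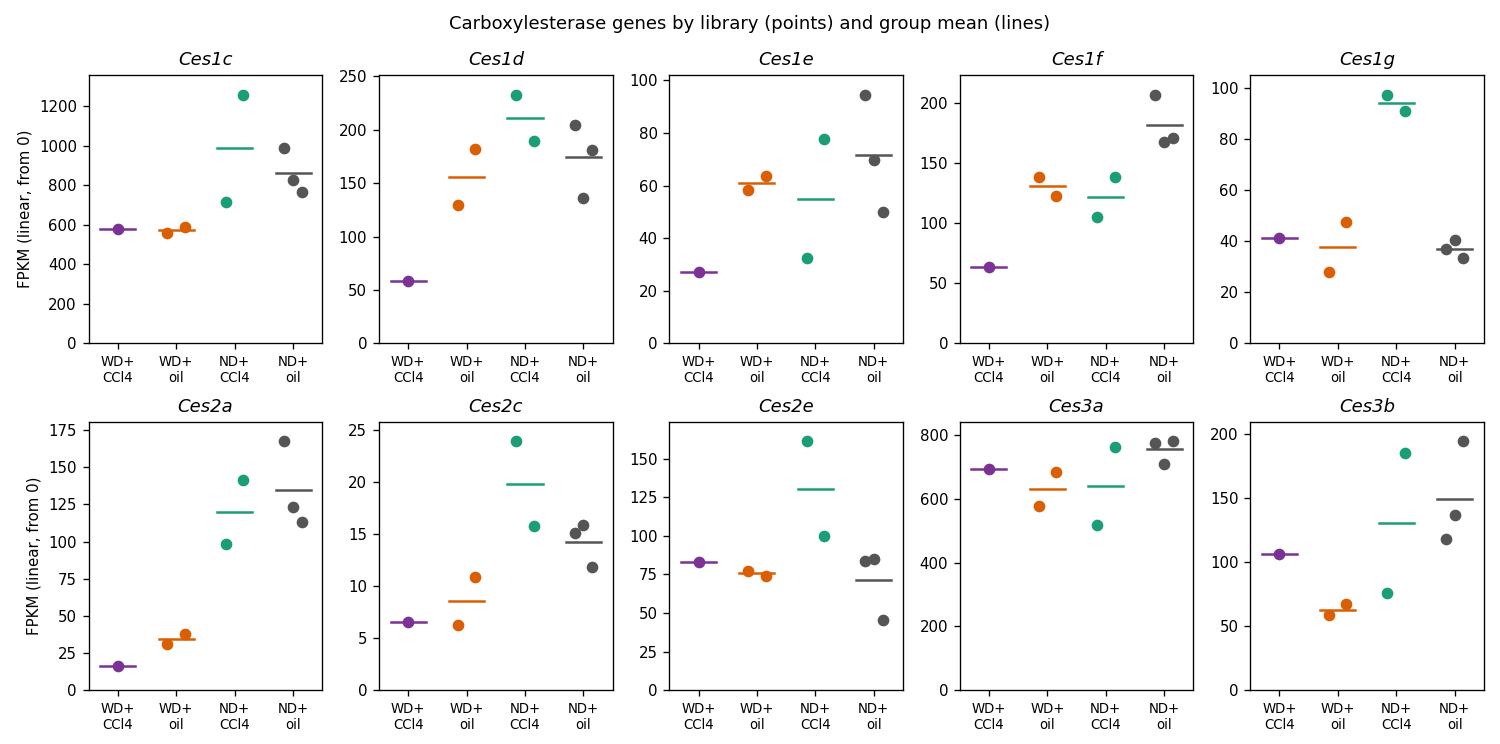
FPKM of each member on a linear axis from 0, with 1 point for each library and a line at the group mean. Ces2a is low in all 3 western diet libraries, at 16.3, 31.0 and 37.7 FPKM, and Ces1g is high in both ND+CCl4 libraries, at 97.3 and 90.9 FPKM.

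Carbon tetrachloride under normal chow was tested by setting ND+CCl4 against ND+oil, with the same 3 control libraries. Of the 10 members 1 rose, Ces1g, 0 fell and 9 did not pass, while of all tested genes 1.42% passed, and 1.02% rose and 0.400% fell, or 118 and 46 genes, against 36 and 54 under median-of-ratios scaling. The members' median was -0.01, against 0.26 for all tested genes, with 5 members on each side of 0, and under median-of-ratios scaling, where Ces1c and Ces1d turned to -0.18 and -0.04, it was -0.34. The ND+CCl4 libraries lay above ND+oil without overlap in 2 members, Ces1g and Ces2e, and below it in 1, Ces1f. Over all tested genes these shares were 41.8% and 3.80%.

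Ces1g (ENSMUSG00000057074, chromosome 8, 93302369 to 93337308, minus strand, 14 exons) had 97.3 and 90.9 FPKM in ND+CCl4, against 36.9, 40.4 and 33.2 FPKM in ND+oil. Both ND+CCl4 libraries were above every other library of the study, and the ND+CCl4 mean was 2.55 times the ND+oil mean. The log2 fold change was 1.33 ± 0.24 (limma adjusted p = 0.0435), or 1.07 relative to the median of all genes. The call ended under median-of-ratios scaling, at 1.01 (limma adjusted p = 0.132), and without any 1 of 6 libraries, those of WD+oil and ND+oil and ND+CCl4 library 1 (limma adjusted p between 0.0524 and 0.241, change between 1.26 and 1.40), and without a filter on low values (0.0993).

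Ces1b, which lies beside Ces1c in the first cluster and is not among the 10 members, stood out in the same comparison. It had 65.0 and 66.1 FPKM in ND+CCl4, against 26.5, 17.5 and 15.5 FPKM in ND+oil, and the groups did not overlap. It rose by 1.71 ± 0.27 (limma adjusted p = 0.0327). Under median-of-ratios scaling the change was 1.39 and did not pass (limma adjusted p = 0.0857). Without a filter the adjusted p was 0.0923, and without ND+CCl4 library 1, ND+oil library 2 or 3 or either WD+oil library the adjusted p lay between 0.062 and 0.193.

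Its neighbour Ces1c, with a transcript 91.4% identical, had 715 and 1259 FPKM in ND+CCl4, against 987, 828 and 768 FPKM in ND+oil. The 2 ND+CCl4 libraries enclosed all 3 controls, and the change was 0.15 with a 95% interval from -0.48 to 0.77. Whether the changes of the 2 genes differed was not tested. Their promoters are shown because they are 93.2% identical over the 147 bases that align of the 250 before the start, while the levels of the 2 genes lie far apart. Each line gives 120 bases on the minus strand of GRCm38.p6, at chr8:93080025-93080144 for Ces1b and chr8:93131379-93131498 for Ces1c, and capitals mark the longest run that both windows share, of 58 bases.
Ces1b: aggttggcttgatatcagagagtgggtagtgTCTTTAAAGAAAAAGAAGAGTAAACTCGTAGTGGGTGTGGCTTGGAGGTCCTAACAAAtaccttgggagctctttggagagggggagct
Ces1c: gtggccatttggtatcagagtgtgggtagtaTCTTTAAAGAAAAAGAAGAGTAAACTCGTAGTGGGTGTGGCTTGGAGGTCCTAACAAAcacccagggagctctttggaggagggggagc
The run begins 96 bases before the start of Ces1b and 184 before that of Ces1c. Of the 32851 windows 3 hold it, all of them windows of Ces1b or Ces1c.

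In the Ces2 group under carbon tetrachloride, Ces2a had 98.6 and 141 FPKM in ND+CCl4, against 167, 123 and 113 FPKM in ND+oil. The groups overlapped, at -0.17 with a 95% interval from -0.73 to 0.40. Ces2e had 161 and 99.6 FPKM in ND+CCl4, above all 3 ND+oil libraries at 83.5, 85.2 and 45.3 FPKM, and its change of 0.88 ± 0.32 did not pass (limma adjusted p = 0.18). Ces2c had 23.9 and 15.8 FPKM in ND+CCl4, against 15.1, 15.9 and 11.9 FPKM in ND+oil, and overlapped.

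Among triglyceride hydrolases, Ces1f had 105 and 138 FPKM in ND+CCl4, below 207, 168 and 171 FPKM in ND+oil, at -0.58 ± 0.20 (limma adjusted p = 0.167). Ces1d had 233 and 189 FPKM in ND+CCl4, against 205, 136 and 182 FPKM in ND+oil, at 0.29 with a 95% interval from -0.29 to 0.86. For Ces1e, Ces3a and Ces3b the 2 ND+CCl4 libraries themselves stood apart. Ces1e had 32.4 FPKM in ND+CCl4 library 1 and 77.6 in library 2, Ces3a had 517 and 762, and Ces3b had 75.5 and 185. For these 3 and for Ces1c and Ces2a the sign of the change differed between the fits without library 1 and without library 2 of ND+CCl4, and none passed in either. Library 1 of ND+CCl4 also had the highest sums of stellate cell, cholangiocyte and sinusoidal endothelial markers of all libraries, as given below. Its sums of hepatocyte markers, 65495 FPKM, and of periportal markers, 41802 FPKM, were the highest too. Whether these sums bear on the members was not tested.

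Western diet and carbon tetrachloride together were represented by 1 library, WD+CCl4, which the fit assumes to vary like the other groups. Against ND+oil 2 of the 10 members fell, Ces2a and Ces1f, 0 rose and 8 did not pass, while of all tested genes 0.929% passed, and 0.261% fell and 0.669% rose. The members' median was -0.78, against 0.19 for all tested genes, and 8 of 10 were below 0, against 27.7% of all tested genes. The WD+CCl4 library lay below all ND+oil libraries in 8 members and above them in 1, Ces1g, whose change turned to -0.06 under median-of-ratios scaling. Over all tested genes these shares were 13.4% and 51.5%.

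Ces2a had 16.3 FPKM in WD+CCl4, the lowest of the 8 libraries and 12.1% of the ND+oil mean of 135 ± 28.7 FPKM. Its log2 fold change was -2.95 ± 0.31 (limma adjusted p = 0.00696), or -3.14 relative to the median of all genes. It passed in all 7 fits that leave out 1 of the other libraries, at changes between -3.06 and -2.79. The WD+CCl4 library itself could not be left out, and with a replicate block Ces2a did not pass.

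Ces1f had 63.2 FPKM in WD+CCl4, again the lowest of the 8 libraries, against 182 ± 21.7 FPKM in ND+oil (SD, n = 3). Its log2 fold change was -1.50 ± 0.26 (limma adjusted p = 0.0484), or -1.69 relative to the median of all genes. This lies close to the threshold. The call ended with a pseudocount of 0.1 (limma adjusted p = 0.0653), without a filter (0.0541), with a mean FPKM of at least 5 (0.056), under median-of-ratios scaling (0.0551) and without either WD+oil library or any ND+oil library (0.0799 to 0.123).

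Ces1d and Ces1e had their lowest values in the same library. Ces1d had 58.1 FPKM in WD+CCl4, against 205, 136 and 182 FPKM in ND+oil, at -1.55 ± 0.32 (limma adjusted p = 0.081). With the Mup genes removed Ces1d passed, at -1.69 (limma adjusted p = 0.0484). Ces1e had 27.1 FPKM in WD+CCl4, against 94.5, 69.7 and 50.1 FPKM in ND+oil, at -1.32 ± 0.49 (limma adjusted p = 0.25). Ces2c had 6.59 FPKM in WD+CCl4, against 15.1, 15.9 and 11.9 FPKM in ND+oil, at -1.0 ± 0.34 (limma adjusted p = 0.222).

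The remaining members were near their control level in WD+CCl4 or had wide intervals. Ces3a had 693 FPKM in WD+CCl4, or 91.7% of the ND+oil mean, with a 95% interval of its log2 fold change from -0.78 to 0.54. Ces2e had 82.9 FPKM (interval from -0.67 to 1.21), Ces3b 106 FPKM (-1.56 to 0.64), Ces1c 580.1 FPKM (-1.35 to 0.23) and Ces1g 41.4 FPKM (-0.53 to 0.87). An interval that holds 0 does not show that a level was the same.

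**Figure D3:**
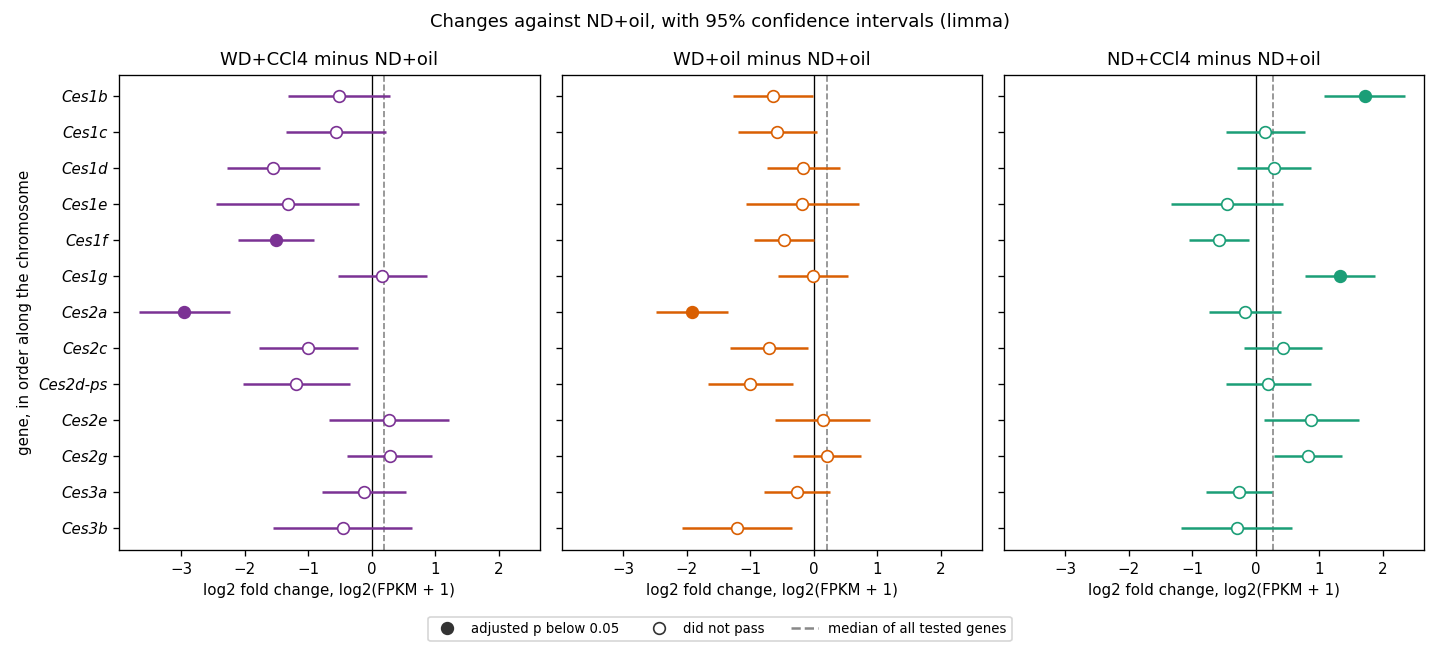
Log2 fold changes against ND+oil with 95% confidence intervals from limma, for the members and the 3 other carboxylesterases that passed the filter, in order along chromosome 8. Filled points passed an adjusted p below 0.05 (Ces2a and Ces1f lower in WD+CCl4, Ces2a lower in WD+oil, Ces1b and Ces1g higher in ND+CCl4), and the dashed line is the median of all tested genes.

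The 2 single treatments were set against each other directly, WD+oil against ND+CCl4. Of the 10 members 1 was lower in WD+oil, Ces2a, 0 were higher and 9 did not pass, while of all tested genes 0.617% passed, and 0.208% were lower and 0.408% higher. Ces2a had 31.0 and 37.7 FPKM in WD+oil, against 98.6 and 141 FPKM in ND+CCl4, at -1.76 ± 0.27 (limma adjusted p = 0.037). Ces1g had 27.9 and 47.5 FPKM in WD+oil, against 97.3 and 90.9 FPKM in ND+CCl4, without overlap, at -1.34 ± 0.26 (limma adjusted p = 0.0785). Ces1b had 9.38 and 15.4 FPKM in WD+oil, against 65.0 and 66.1 FPKM in ND+CCl4, and was lower in WD+oil by a log2 difference of -2.35 ± 0.30 (limma adjusted p = 0.0228). In 7 members both WD+oil libraries lay below both ND+CCl4 libraries and in 0 above, against 22.8% and 17.1% of all tested genes. The Ces2a call ended under median-of-ratios scaling (limma adjusted p = 0.0735), without a filter (0.0849) and without any of the 2 WD+oil libraries, the 2 ND+CCl4 libraries or ND+oil library 2 (0.0576 to 0.273). That of Ces1b ended without a filter (0.0733) and without the same 5 libraries (0.0565 to 0.206).

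Whether the effect of carbon tetrachloride differed between diets was tested by the interaction, (WD+CCl4 minus WD+oil) minus (ND+CCl4 minus ND+oil). None of the 10 members passed (0 at a limma adjusted p below 0.05 and 2 at an unadjusted p below 0.05), while 0.0608% of all tested genes, 7 in number, did (0.0347% above 0 and 0.0261% below). The 2 were Ces1d and Ces1g. For Ces1d the interaction was -1.67 ± 0.42 (limma adjusted p = 0.312), with 58.1 FPKM in WD+CCl4 and 129.6 and 182 FPKM in WD+oil, beside 233 and 189 FPKM in ND+CCl4 and 205, 136 and 182 FPKM in ND+oil. For Ces1g it was -1.15 ± 0.40 (limma adjusted p = 0.464), and for Ces2a -0.86 ± 0.41 (limma adjusted p = 0.528). The median of the 10 members was -0.71, and that of all tested genes -0.29. It rests on the single WD+CCl4 library.

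The call of Ces2a in WD+CCl4 held with every other library left out, while the calls of Ces1f, of Ces2a in WD+oil and of Ces1g in ND+CCl4 did not. The single WD+CCl4 library itself could not be left out, so its calls faced a lesser test than those in WD+oil and ND+CCl4. With a replicate block none of these calls passed. Without 1 library, Ces1f lay between -1.56 and -1.41, Ces2a in WD+oil between -2.06 and -1.76 and Ces1g between 1.26 and 1.40. Calls ended also when a library of a group outside the comparison was left out, since all libraries share 1 estimate of the spread.

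**Figure D4:**
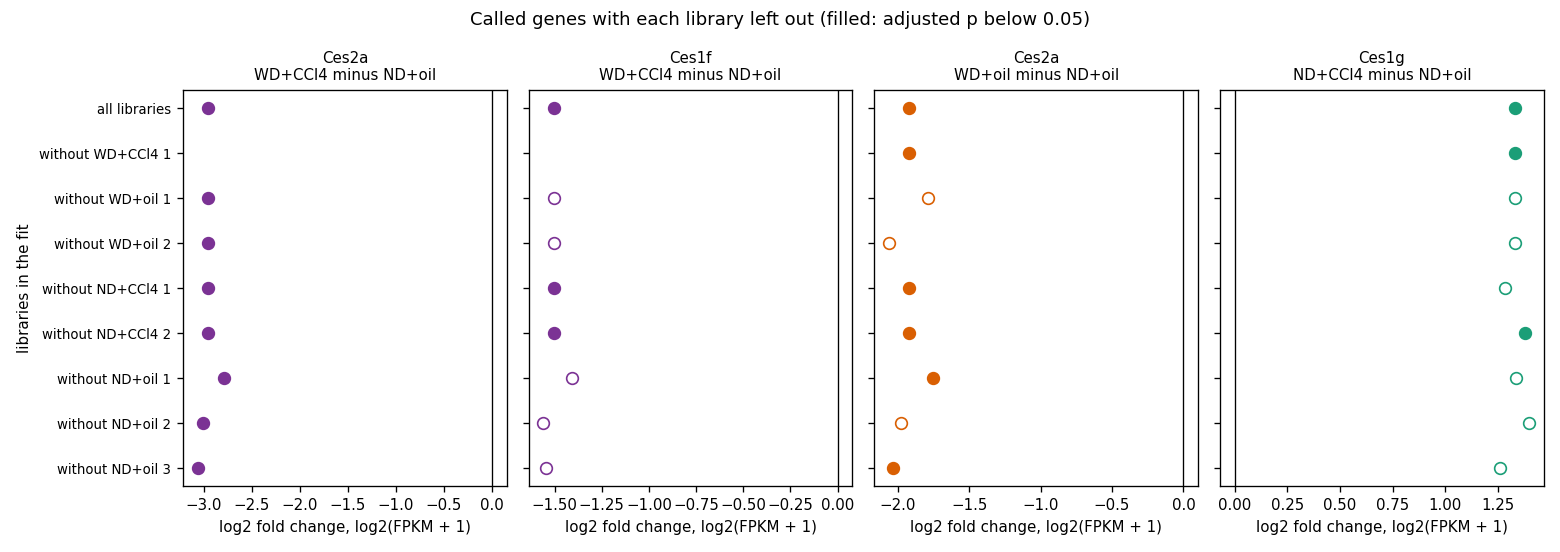
Log2 fold changes of the 4 calls against ND+oil (x axis, log2(FPKM + 1) scale) with all libraries and with each library left out in turn (rows), filled where limma's adjusted p was below 0.05. Ces2a in WD+CCl4 stays filled in all 7 fits and lies between -3.06 and -2.79, while the other 3 calls lose their fill in several rows at changes that stay on the same side of 0. The WD+CCl4 library itself cannot be left out of its own comparison.

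Among the 10 other carboxylesterase genes, 3 passed the filter, Ces1b, given above, Ces2d-ps and Ces2g. Ces1h, Ces2b, Ces2f, Ces2h and Ces5a were listed at 0 in every library. Ces1a had 0.425 FPKM in ND+CCl4 library 1 and 0 elsewhere. Ces4a was listed at 0 in all 5 treated libraries and had 0.533, 0.948 and 1.90 FPKM in the ND+oil libraries, so that only 1 library reached 1 FPKM and the gene was not tested. Ces2d-ps, the pseudogene closest to Ces2c, had 1.91 FPKM in WD+CCl4, 1.54 and 3.31 in WD+oil, 7.33 and 5.86 in ND+CCl4, and 7.27, 6.09 and 3.89 in ND+oil. Its western diet libraries were the lowest, as they were for Ces2c, with which it shares 45.7% of its 50-base stretches, and no comparison of it passed. Ces2g had 9.74 FPKM in WD+CCl4, 10.1 and 8.31 in WD+oil, 17.7 and 12.04 in ND+CCl4, and 7.36, 9.96 and 6.49 in ND+oil. Its ND+CCl4 libraries were the highest, at 0.83 ± 0.23 against ND+oil (limma adjusted p = 0.124).

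Profiles across the 8 libraries were compared by the root mean square difference of log2(FPKM + 1), each gene centred on its own mean, as a description over libraries that share their groups. Ces2a varied most of the 10, over a range of 3.29 on the log2 scale, and Ces3a least, over 0.59. Among members the most alike pair was Ces1e and Ces1f, at 0.30, followed by Ces1c and Ces3a, at 0.32. Ces1g was nearest to Ces2e, at 0.40, and Ces1d and Ces2c were nearest to each other, at 0.41. Of the members, Ces2a had the largest distance to its nearest member, Ces2c, at 0.74, against a median of 1.21 between Ces2a and all tested genes. The measure is not scaled, so it grows with a gene's own spread. That spread, as a root mean square, was 1.13 for Ces2a and 0.20 for Ces3a. Of all tested genes outside the family, the nearest to Ces2a was Cyp1a2, at 0.35. The nearest to Ces1c was Aldh1l1, at 0.0909, to Ces3a Pyurf, at 0.0892, to Ces2e Dut, at 0.13, to Ces2c Tmem14a, at 0.24, and to Ces3b Serpina3k, at 0.28. Those of Ces1d, Ces1e, Ces1f and Ces1g were Gm5424, Arrdc2, 5730414N17Rik and 1700048O20Rik, at 0.29, 0.23, 0.20 and 0.21. For every member the nearest gene outside the family lay closer than the nearest member, but it was picked from far more genes.

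Cyp1a2, a cytochrome P450 of the central lobule that oxidises caffeine and many drugs, had 29.5 FPKM in WD+CCl4, 46.7 and 50.5 in WD+oil, 286 and 179 in ND+CCl4, and 289, 231 and 211 in ND+oil. The western diet libraries were low and the normal diet libraries high, as for Ces2a. Cyp1a2 is described here because its profile over these libraries was nearest to that of Ces2a. The shared pattern followed from that choice and is no separate support. On the log2 scale Cyp1a2 fell by 2.99 in WD+CCl4 and by 2.29 in WD+oil (limma adjusted p = 0.00696 and 0.0111), and its change in ND+CCl4 was -0.09 (limma adjusted p = 0.813).

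Cyp1a2 is 1 of 15 tested partners in drug hydrolysis and conjugation, of which 0 rose and 4 fell in WD+CCl4, 2 rose and 2 fell in WD+oil, and 4 rose and 0 fell in ND+CCl4. The list medians were -0.20, 0.03 and 1.10, against 0.19, 0.22 and 0.26 for all tested genes. In the same order, 0.669%, 3.81% and 1.02% of all tested genes rose, and 0.261%, 0.599% and 0.4% fell. Cyp3a11, the main drug-oxidising P450 of mouse liver, had 163 FPKM in WD+CCl4, 337 and 389 in WD+oil, 1792 and 2178 in ND+CCl4, and 914, 565 and 648 in ND+oil. It fell in WD+CCl4 by 2.08 ± 0.32 and rose in ND+CCl4 by 1.51 ± 0.25 (limma adjusted p = 0.0335 and 0.0365), and in WD+oil its change of -0.94 ± 0.25 did not pass (0.0759). Cyp4a14, a P450 that hydroxylates fatty acids, had 11.4 FPKM in WD+CCl4, 88.8 and 44.1 in WD+oil, 51.1 and 63.7 in ND+CCl4, and 6.85, 3.95 and 0.718 in ND+oil. All treated libraries lay above all ND+oil libraries, and it rose in WD+oil by 3.97 ± 0.59 and in ND+CCl4 by 3.84 ± 0.59 (limma adjusted p = 0.0193 and 0.0286), while the change in WD+CCl4 was 1.62 (0.354). Taken group by group, 51.5% of all tested genes in WD+CCl4, 40.7% in WD+oil and 41.8% in ND+CCl4 lay above ND+oil without overlap. Cyp2c55 had 0.663 and 0.480 FPKM in WD+oil, 13.6 and 10.6 in ND+CCl4, and 4.40, 3.51 and 1.84 in ND+oil. It fell in WD+oil by 1.39 and rose in ND+CCl4 by 1.66 (limma adjusted p = 0.0354 and 0.0331). Its WD+oil values lay below 1 FPKM, where adding 1 before the log shrinks a change. Their mean was 17.6% of the ND+oil mean. The 4 that fell in WD+CCl4 were Cyp1a2, Cyp3a11, Cyp2c55, which was listed at 0 there, and Cyp2c29, which is named because it passed. Gsta1, a glutathione transferase, had 259 and 37.1 FPKM in ND+CCl4, against 4.40, 1.95 and 1.05 in ND+oil. It rose in ND+CCl4 by 4.96 ± 0.80 (limma adjusted p = 0.0327), and its change was 3.58 without ND+CCl4 library 1. Gusb, the beta-glucuronidase that Ces1e binds, had 12.3 FPKM in WD+CCl4, 13.9 and 16.3 in WD+oil, 16.1 and 9.16 in ND+CCl4, and 6.40, 7.37 and 5.42 in ND+oil. It rose in WD+oil by 1.13 ± 0.24 (limma adjusted p = 0.045). All other treated libraries also lay above all ND+oil libraries, and the changes of 0.85 in WD+CCl4 and 0.84 in ND+CCl4 did not pass (limma adjusted p = 0.241 and 0.128). Under median-of-ratios scaling Gusb in WD+oil and Cyp2c55, Cyp4a14, Gsta1 and Cyp3a11 in ND+CCl4 no longer passed (limma adjusted p between 0.0518 and 0.141).

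Other lipid and ester hydrolases, a list of 28 tested genes, are given for comparison. In WD+oil 3.81% of all tested genes rose and 0.599% fell, with a median of 0.22. Of the 28 listed genes 5 rose and 0 fell, with a median of 0.29. Among them Lpl, the lipoprotein lipase, had 29.2 FPKM in WD+CCl4, 21.4 and 24.9 in WD+oil, 18.7 and 4.93 in ND+CCl4, and 1.53, 2.69 and 3.29 in ND+oil. All treated libraries lay above all ND+oil libraries. In each group alone this was common over all tested genes (51.5% in WD+CCl4, 40.7% in WD+oil and 41.8% in ND+CCl4). The change of Lpl was 2.81 ± 0.46 in WD+oil (limma adjusted p = 0.0246), and that of 3.14 ± 0.58 in WD+CCl4 did not pass (0.0585). Pnpla3, a lipid droplet lipase, had 8.68 and 4.88 FPKM in WD+oil, against 0.859, 1.95 and 0.343 in ND+oil (1.95 ± 0.36, limma adjusted p = 0.0298). Mgll, the monoglyceride lipase that completes triglyceride breakdown, rose by 1.03 ± 0.22 (limma adjusted p = 0.0432), and Abhd2, a serine hydrolase, by 1.61 ± 0.24 (limma adjusted p = 0.0201). The fifth was Lipa, the lysosomal acid lipase, at 0.94 ± 0.20 (limma adjusted p = 0.045), which is named because it passed. Pnpla3, Mgll and Lipa did not pass under median-of-ratios scaling (limma adjusted p = 0.0505, 0.0885 and 0.0883). In ND+CCl4 1 of the 28 rose, Abhd2, by 1.49 (limma adjusted p = 0.0331, and 0.0505 under median-of-ratios scaling), and 0 fell. Over all tested genes 1.02% rose in ND+CCl4 and 0.4% fell. There Bche, butyrylcholinesterase, at 0.76, Acot2, a mitochondrial acyl-CoA thioesterase, at 1.65, and Lpl, at 1.66, did not pass (limma adjusted p = 0.0754, 0.117 and 0.122). In WD+CCl4 0 of the 28 passed, with a list median of 0.15, against 0.19 for all tested genes.

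In WD+CCl4, WD+oil and ND+CCl4, 0.669%, 3.81% and 1.02% of all tested genes rose. Of 14 genes for VLDL assembly and triglyceride handling, 1 rose and 0 fell in each of these groups. It was Apoa4, an apolipoprotein of triglyceride-rich particles, with 2416 FPKM in WD+CCl4, 2144 and 2756 in WD+oil, 569.99 and 367 in ND+CCl4, and 75.8, 76.8 and 55.8 in ND+oil. Apoe, at 1.07 in WD+oil, missed the threshold (limma adjusted p = 0.0817). P4hb, Cideb and Arfrp1 had changes between 0.22 and 0.38 in WD+oil and ND+CCl4 and missed it too. Of 17 tested nuclear receptors and factors of drug and lipid metabolism, 0 rose and 0 fell in any of the 3 comparisons. In WD+oil Bcl6, a repressor that limits fat oxidation genes in mouse liver, had the smallest p of the list, at 1.02 (limma adjusted p = 0.0814), with 7.81 and 4.93 FPKM in WD+oil, against 3.26, 3.00 and 1.65 FPKM in ND+oil. Srebf1, which switches on fatty acid synthesis, had 32.9 FPKM in WD+CCl4, 73.4 and 78.3 in WD+oil, 19.3 and 34.3 in ND+CCl4, and 37.8, 47.9 and 23.1 in ND+oil. Its WD+oil libraries were above the rest, at 1.10 ± 0.34 against ND+oil (limma adjusted p = 0.104). Nfe2l2 and Nr1h3 followed in WD+oil, at 0.77 and 0.51, and in ND+CCl4 Nfe2l2, Nr1h4, Foxa2 and Nr0b2 were at 0.78, 0.57, 1.18 and -1.33 without passing (limma adjusted p between 0.144 and 0.215).

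Some markers of liver zones and of other cells also differed between groups, and their part in the carboxylesterase results was not tested. Of 15 male-biased liver genes 4 fell in WD+CCl4, 8 in WD+oil and 8 in ND+CCl4, and 0 rose in any of these. In the same order, 0.261%, 0.599% and 0.4% of all tested genes fell, and 0.669%, 3.81% and 1.02% rose. Hsd3b5, a male-specific steroid dehydrogenase of mouse liver, had 1.32 FPKM in WD+CCl4, 9.05 and 1.81 in WD+oil, 1.81 and 1.076 in ND+CCl4, and 80.2, 100.4 and 138 in ND+oil, and fell in all 3 comparisons. So did Cyp2u1, Cyp7b1 and Slco1a1, with log2 fold changes between -3.34 (Slco1a1 in ND+CCl4) and -1.69 (Slco1a1 in WD+oil), although Cyp7b1 in WD+CCl4 did not pass under median-of-ratios scaling (limma adjusted p = 0.0528). Mup12, whose reads near-identical Mup genes may share, fell in WD+oil by 3.24 and in ND+CCl4 by 5.89, and Serpina1e in WD+oil by 2.92. Of 8 tested pericentral hepatocyte markers 2 fell in WD+CCl4, 1 in WD+oil and 2 in ND+CCl4. The 1 in WD+oil was Cyp1a2, and in ND+CCl4 the 2 were Glul and Slc1a2. Glul, glutamine synthetase of the innermost hepatocytes, had 89.95 FPKM in WD+CCl4, 352 and 339.8 in WD+oil, 42.9 and 72.3 in ND+CCl4, and 200.1, 221 and 174 in ND+oil. Its WD+oil libraries were the highest, at 0.80 against ND+oil, which did not pass. Its WD+CCl4 and ND+CCl4 libraries lay below all ND+oil libraries, and only the ND+CCl4 change passed. Ces2a was low in both WD+oil and WD+CCl4. Of the other pericentral markers, Oat and Cyp2e1 were at -1.90 and -0.84 in ND+CCl4 and Gulo and Oat at 0.26 and 0.38 in WD+oil, and none of these passed. Of the calls of named genes in these lists in the 4 comparisons between groups, 9 of 47 held in every fit with 1 library left out, among them that of Cyp1a2 in WD+CCl4. For calls in WD+CCl4 that single library could not be left out. Of 10 periportal markers 0 rose and 0 fell in WD+CCl4, 0 rose and 1 fell in WD+oil, and 1 rose and 0 fell in ND+CCl4. They were Hal, histidine ammonia-lyase, which fell by 1.49 (limma adjusted p = 0.0466), and Hsd17b13, a lipid droplet protein, which rose by 1.37 (0.0404), and neither passed under median-of-ratios scaling (0.0585 and 0.0763). Cyp2f2 and Arg1 in WD+oil (limma adjusted p = 0.114 and 0.294) and Sds and Ass1 in ND+CCl4 (0.145 and 0.183) did not pass.

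The 9 Kupffer cell and macrophage markers summed to 389.9 FPKM in WD+CCl4, 485 to 935 in WD+oil, 127 to 352 in ND+CCl4, and 66.8 to 123 in ND+oil, and 8 of the 9 rose in WD+oil. The 8 stellate cell markers summed to 79.3 FPKM in WD+CCl4, 100.3 to 113 in WD+oil, 54.0 to 160.4 in ND+CCl4, and 32.0 to 40.1 in ND+oil. Sinusoidal endothelial markers summed to 36.9 FPKM in WD+CCl4, 62.1 to 64.6 in WD+oil, 50.2 to 78.6 in ND+CCl4, and 26.2 to 41.8 in ND+oil. Cholangiocyte markers summed to 174 FPKM in WD+CCl4, 60.4 to 97.2 in WD+oil, 28.6 to 459 in ND+CCl4, and 18.5 to 39.8 in ND+oil, most of it Spp1 (between 17.3 and 455 FPKM). The 5 erythroid markers summed to 732 FPKM in WD+CCl4, 554 to 928 in WD+oil, 253 to 282 in ND+CCl4, and 230 to 349.6 in ND+oil. Of 5 markers each, Adipoq, Lep and Plin1 of adipocytes, Prss2, Cpa1, Pnlip and Ins2 of pancreas and Vil1, Fabp6, Muc2 and Cdx2 of intestine were at 0 in every library. The other 2 of 5 adipocyte markers, Fabp4 and Cfd, summed to 38.5 FPKM in WD+CCl4, 56.8 to 64.8 in WD+oil, 8.76 to 17.7 in ND+CCl4, and 3.09 to 6.60 in ND+oil. In WD+CCl4 the sum was all Fabp4, with Cfd listed at 0. In WD+oil Fabp4 had 33.5 and 46.0 FPKM and Cfd 23.3 and 18.8. Both rose in WD+oil, by 2.95 and 4.17 (limma adjusted p = 0.0113 and 0.00127). The fifth intestine marker, Fabp2, had 62.9 FPKM in WD+CCl4, 127 and 150.4 in WD+oil, 49.5 and 27.3 in ND+CCl4, and 56.4, 46.6 and 28.1 in ND+oil, and rose in WD+oil by 1.70 ± 0.34 (limma adjusted p = 0.0381, and 0.0596 under median-of-ratios scaling). The fifth pancreas marker, Cela1, had 17.3 FPKM in WD+CCl4, 13.9 and 16.2 in WD+oil, 23.6 and 16.6 in ND+CCl4, and 49.9, 35.4 and 49.9 in ND+oil, and fell in WD+oil by 1.51 ± 0.23 (limma adjusted p = 0.0201). Of the 9 hepatocyte markers 0 rose and 0 fell in any of the 3 comparisons with ND+oil, with a median change of 0.05 in WD+CCl4, -0.11 in WD+oil and 0.10 in ND+CCl4. The named ones, Serpina1a, Cps1, Hpx and Ttr in WD+oil and Fgb, Alb, Cps1 and Ahsg in ND+CCl4, lay between -0.78 and 0.83.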

How the data were processed

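Liver poly(A) RNA was sequenced with a stranded mRNA kit, per the labels' protocols. The submitters' processing notes name StringTie 2.1.0, HISAT2 2.2.1, cutadapt 3.7, FastQC 0.11.9 and the GRCm38 build. The deposited table gives FPKM per gene, computed by the authors, for 8 libraries. No counts were used, the low values showed no steps of whole reads, and the depth and its precision are unknown.

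Kept were the 11514 genes that reached 1 FPKM in 2 or more libraries, including all 10 members. Log2(FPKM + 1) was fitted with limma 3.58.1 (R 4.3.3, trended variance) over all 8 libraries with a mean for each group. Tests were two-sided, in 5 comparisons, with Benjamini-Hochberg adjustment over all tested genes within each and a threshold of 0.05. The fit was tested on simulated data. The alternatives tried were median-of-ratios scaling, removal of the Mup genes, a replicate block, each library left out, a filter on a mean FPKM of 5, no filter, and a smaller pseudocount (0.1).

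Members and lists were chosen with earlier results of these data known. All members are named, and from each list up to 4 genes with the smallest p in WD+oil and in ND+CCl4. Promoters came from RefSeq (GRCm38.p6), transcripts and coordinates from GENCODE M21, and identities from Biopython 1.88.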

Additional observations from a re-analysis of the deposited data

How the results depend on the processing

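All calls are limma's at an adjusted p below 0.05. The number of members called, 2 in WD+CCl4 against ND+oil, was 1 with a pseudocount of 0.1, 1 without a filter on low values, 1 with a mean FPKM of at least 5, 1 under median-of-ratios scaling and 3 without the Mup genes, where Ces1d was added. The 1 call in ND+CCl4 against ND+oil and the 1 call in WD+oil against ND+CCl4 became 0 without a filter and 0 under median-of-ratios scaling. Leaving out 1 library gave between 1 and 2 members in WD+CCl4, 0 and 2 in WD+oil, 0 and 1 in ND+CCl4, 0 and 1 in WD+oil against ND+CCl4, and 0 and 0 for the interaction. The 6 pairs with the same replicate number in different groups had correlations of their deviations between -0.28 and -0.01. In a group of 2 libraries the deviations mirror each other, so these pairs are not separate tests. They cannot decide whether the replicate numbers pair the libraries. With a replicate block 0 members passed in WD+CCl4, WD+oil and ND+CCl4 against ND+oil and in WD+oil against ND+CCl4. The cause was not tested, although the filters change how many genes are tested, and a left-out library or a block leaves fewer degrees of freedom.

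Over all tested genes the count in WD+CCl4 against ND+oil, 107, was 43 with a pseudocount of 0.1, 171 without a filter, 42 with a mean FPKM of at least 5, 6 with a replicate block, and between 35 and 483 with 1 library left out. The 508 in WD+oil against ND+oil became 121 without a filter, 190 with a mean FPKM of at least 5, 289 under median-of-ratios scaling, 310 without the Mup genes, 32 with a replicate block, and between 4 (without WD+oil library 2) and 1148 (without ND+CCl4 library 2). The 164 in ND+CCl4 against ND+oil became 18 without a filter, 90 under median-of-ratios scaling, 49 with a replicate block, and between 19 (without ND+CCl4 library 1) and 1171 (without ND+CCl4 library 2). The 71 in WD+oil against ND+CCl4 became 6 without a filter and between 1 and 122 with 1 library left out. The 7 of the interaction became 3 with a pseudocount of 0.1, 17 without a filter, 3 with a mean FPKM of at least 5, 0 under median-of-ratios scaling, 2 without the Mup genes, 2 with a replicate block, and between 0 and 157 with 1 library left out.

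The sign of a log2 fold change turned for the genes below, and the cause was not tested. Under median-of-ratios scaling it turned in WD+CCl4 against ND+oil for Ces1g (-0.056). In WD+oil against ND+oil it turned for Ces2e (-0.127), Ces2g (-0.0362), Nr1h4 (-0.196), Gulo (-0.00917), Slc1a2 (-0.203) and Sds (-0.0417). In ND+CCl4 against ND+oil it turned for Ces1c (-0.183), Ces1d (-0.0423), Ces2d-ps (-0.0856), Nr1h3 (-0.106), Apoe (-0.161), P4hb (-0.0529), Hpx (-0.234), Hal (-0.289) and Arg1 (-0.00209), and for the interaction for Ces1c (0.233). Without the Mup genes it turned for Nr1h4 (-0.066) and Slc1a2 (-0.0792) in WD+oil, Hpx (-0.0306) and Hal (-0.0925) in ND+CCl4, and Ces3a (-0.00833) in WD+oil against ND+CCl4. With a replicate block it turned for Ces2e (-0.144), Ces3a (0.0125) and Ces3b (0.0249) in WD+CCl4, Ces2e (-0.154), Nr1h4 (-0.0388), Foxa2 (0.176) and Sds (-0.114) in WD+oil, Ces2d-ps (-0.018), Apoe (-0.0314) and Hpx (-0.0346) in ND+CCl4, and Ces1c (0.0473) for the interaction.

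With 1 library left out, the lowest and highest log2 fold changes lay on both sides of 0 for 28 results. In WD+CCl4 against ND+oil these were Ces2e (-0.0242 to 0.424). In WD+oil against ND+oil they were Ces1d (-0.405 to 0.0832), Ces1e (-0.408 to 0.0433), Ces1g (-0.387 to 0.363), Ces2e (-0.154 to 0.295), Nr1h4 (-0.0465 to 0.181), Foxa2 (-0.579 to 0.176), Nr0b2 (-0.235 to 0.869), Fgb (-0.235 to 0.00639), Alb (-0.379 to 0.243), Slc1a2 (-0.00129 to 0.0967), Cyp2e1 (-0.22 to 0.00863) and Sds (-0.114 to 0.432). In ND+CCl4 against ND+oil they were Ces1c (-0.26 to 0.556), Ces1e (-1.07 to 0.164), Ces2a (-0.423 to 0.0924), Ces3a (-0.544 to 0.0139), Ces3b (-0.943 to 0.34), Ces2d-ps (-0.018 to 0.361), Apoe (-0.134 to 0.475), Cyp1a2 (-0.427 to 0.241), Hpx (-0.279 to 0.473), Gulo (-0.131 to 0.00128) and Hal (-0.475 to 0.539). In WD+oil against ND+CCl4 they were Ces1e (-0.344 to 0.893), Ces1f (-0.0822 to 0.304) and Ces3a (-0.277 to 0.281), and for the interaction Ces1c (-0.545 to 0.271). None of these was a call. Depth is unknown, so no limit of detection can be set for the genes listed at 0, and WD+CCl4 rests on 1 library.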
